A study of Danio rerio with 2 samples.

Results

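Among single cells sorted from zebrafish islets for the fluorescence of an α-cell reporter, 58 of the 444 cells that passed the quality filter had no leading hormone. A cell was taken as one of them where no transcript out of ins, gcga, gcgb, ghrl, gip, sst1.1, sst1.2 and sst2 reached 1% of its read counts. Of these cells, 31 came from the 156 control cells that passed and 27 from the 288 gcgr-/- cells, which is 19.9% (95% Clopper-Pearson interval 13.9 to 27.0) and 9.38% (6.27 to 13.3). The cells led by glucagon, somatostatin, insulin, gip or ghrl transcripts, 386 in all, are called hormone-led below.

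Both samples were taken from larvae at 7 days post fertilization that carried the Tg(gcga:GFP) reporter, in which green fluorescent protein is driven by the promoter of gcga. The control larvae are labelled wild type, and the gcgr-/- larvae had both glucagon receptor genes, gcgra and gcgrb, disrupted. Islets were picked by hand under a fluorescence microscope, dissociated, and their fluorescent cells were sorted into plates, giving 192 control and 384 gcgr-/- cells from 1 sample per genotype. The labels call all of these cells alpha cells.

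The islet is a cluster of hormone-secreting cells in the pancreas. Its α cells release glucagon, β cells insulin, δ cells somatostatin and ε cells ghrelin, and in each of them a single hormone transcript usually takes a large part of the messenger RNA. Glucagon acts through its receptor, mainly on the liver, to raise blood glucose, and loss of the receptor is known to increase the number of α cells in fish and mice. Cells with no such transcript in an islet preparation can be of other kinds, such as the epithelium of skin and ducts, neurons that innervate the pancreas, pigment cells, or endocrine cells with little of their hormone or with a hormone that was not counted.

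Because there was 1 sample per genotype and cells of 1 sample are not replicates, the genotypes were compared by size alone, with neither tests nor standard errors. Intervals cover counting error only, and since no collapsing of molecular identifiers is stated, PCR copies make them too narrow. Differences are called at 4-fold or more between counts summed over cells and scaled to a total of 1000000 (CPM). The control and gcgr-/- cells were in separate libraries, and effects of the libraries cannot be told apart from those of the genotype.

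The control cells with no leading hormone had between 5186 and 108899 counts (median 23765) and between 528 and 1756 genes (median 940). The gcgr-/- cells had between 8726 and 52242 counts (median 23480) and between 638 and 1481 genes (median 920), so depth was alike in both genotypes. They were spread over the libraries, as read from the cell names, with members in all 8 control libraries and in 13 of the 16 gcgr-/- libraries of 24 cells each. By the first letter of the cell names, they made up 16.9% and 22.8% of the control cells and 13.6%, 6.41%, 6.06% and 11.5% of the gcgr-/- cells. The cell names use 48 barcodes, each in 12 libraries, and 46 of the 58 cells share a barcode with another of them. No removal of doublets is stated and no doublet caller was run. Neither gcgra nor gcgrb had a count in any of the 58 cells, so the genotype could not be checked in them at this depth.

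The limit of 1% did not separate the cells from the hormone-led ones by a gap. The highest hormone of a control cell took between 0.00612% and 0.9996% of its counts (median 0.139%), and the lowest hormone-led control cell lay at 1.01%. In gcgr-/- the highest hormone took between 0.0165% and 0.980% (median 0.493%), and the lowest hormone-led cell lay at 1.06%. Between 0.5% and 1% there were 5 of the 31 control cells, of which 4 had a somatostatin transcript highest and 1 had ins. In gcgr-/- there were 13 of 27 in that range, and in all 13 the highest hormone was gcga or gcgb. Between 1% and 2%, just outside the limit, lay 9 control cells and 22 gcgr-/- cells, 16 of the latter led by glucagon.

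Glucagon transcripts were the ones that set the gcgr-/- cells apart near the limit. These values chose the cells and are given as a description. In the gcgr-/- cells, gcga and gcgb together took a median of 0.669% of the counts (highest 1.67%), and either was the highest hormone in 17 of 27 cells. In the control cells their median was 0.0091% (highest 0.139%), and they were highest in 0 of 31. Among the hormone-led cells, 106 gcgr-/- cells and 3 control cells were led by gcga or gcgb. With those left out of the total, the cells with no leading hormone were 20.3% (14.2 to 27.5) of 153 control cells and 14.8% (10.0 to 20.8) of 182 gcgr-/- cells. The 27 gcgr-/- cells in this share still include the 17 with gcga or gcgb highest. It therefore does not set all cells with glucagon aside, and the genotypes cannot be compared by it as cells without glucagon. Of the other hormones, ins had a count in 30 of 31 control cells and in 27 of 27 gcgr-/- cells, at 883 and 1114 CPM, a level that free RNA in the suspension could also give and whose source was not tested.

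The 58 cells fell into 5 clusters when the 8 hormone genes and mitochondrial transcripts were left out of the clustering. Cluster 1 held 18 cells, 17 of them gcgr-/-, cluster 2 held 10 control and 5 gcgr-/- cells, and cluster 3 held 15 cells, all control. Cluster 4 held 4 control and 3 gcgr-/- cells, and cluster 5 held 1 control and 2 gcgr-/- cells. With 1 sample per genotype, a cluster that is mostly of 1 sample cannot be told apart from that sample. Cluster 1 drew on 13 libraries, counting that of its control cell, and cluster 3 on 6 libraries with both control letters. Libraries of the same sample do not separate a cluster from that sample. The borders of clusters 1 and 2 moved with the settings of the clustering, and at a resolution of 0.5 in place of 1 they formed 1 cluster but for 1 cell. The names given below rest on marker lists, and the genes that lead a cluster describe it and are no test.

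**Figure D1:**
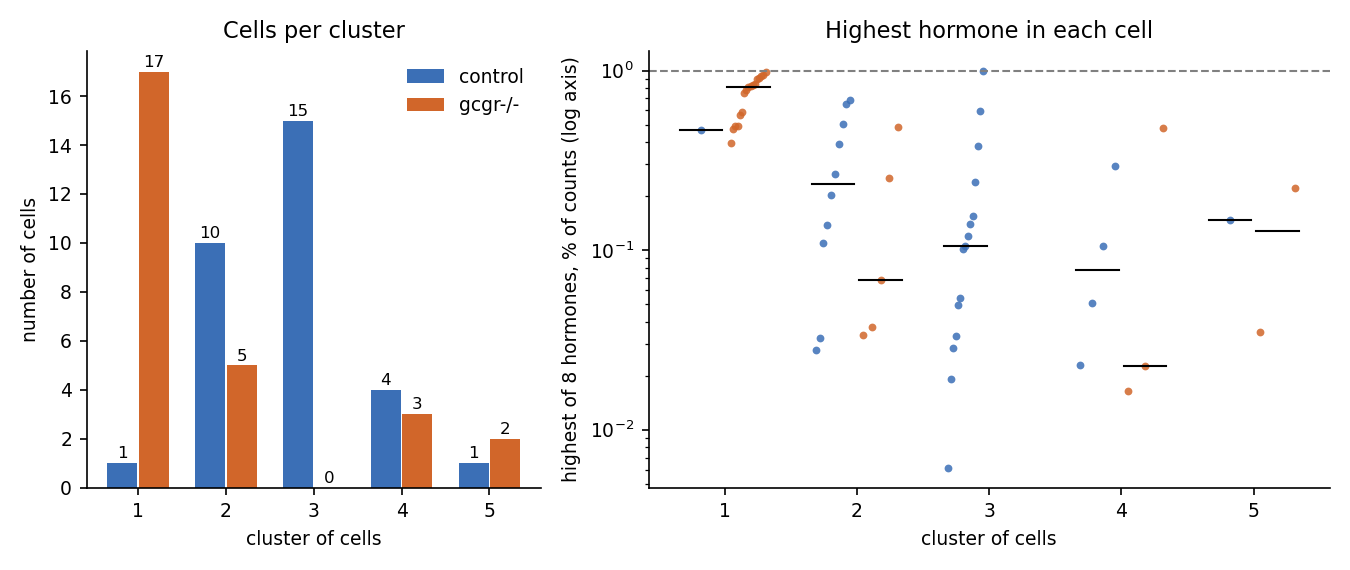
Left, the number of control (blue) and gcgr-/- (orange) cells in each of the 5 clusters, with 17 of 18 cells of cluster 1 from gcgr-/- and all 15 of cluster 3 from control. Right, for each cell (point), the highest of the 8 hormones as a percentage of the cell's counts on a log axis, with the median of each group as a bar and the limit of 1% dashed, showing that the gcgr-/- cells of cluster 1 lie highest below the limit.

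Cluster 1 was α-cell-like, and apart from 1 cell it was made of gcgr-/- cells. All 17 of these had counts of both gcga and gcgb, and gcga lay between 1261 and 9802 CPM (median 5949). The rule used both genes, so their levels are a description and the name does not rest on them. Over all 27 gcgr-/- cells with no leading hormone, gcga had a count in 26 and gcgb in 25. Either was the highest hormone in 14 of the 18 cells of the cluster. The markers of α cells other than glucagon (arxa, pnoca, pltp and npb) took between 0 and 2.29% of the counts of the 17 cells (median 0.745%), with 1 cell at 0. arxa encodes the transcription factor that specifies α cells, pnoca a precursor of the neuropeptide nociceptin, and pltp a phospholipid transfer protein. pnoca was counted in 15 of the 17 cells (median 3991 CPM, highest 17563), pltp in 14 (median 2360, highest 11136) and arxa in 6 (highest 1208). In the 54 gcgr-/- cells led by ins, which should lack them, arxa had 0 counts, pnoca 105 CPM and pltp 371 CPM. Among the other genes that led the cluster were the chemokine gene cxcl20, the zinc transporter gene slc30a2 and the lysosomal protease gene ctsh. Its 1 control cell stood apart, with 0 counts of pnoca and arxa, 43.4 CPM of pltp and 3.42% of its counts in genes of acinar digestive enzymes.

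Set beside the 106 glucagon-led cells of the same sample, the 17 cells of cluster 1 had far less glucagon. The other α-cell transcripts considered lay within 4-fold, as did most of all 776 genes considered. This comparison was added after the values were seen, and the rule fixes its difference in glucagon. Summed gcga was 5876 CPM against 157742 CPM, and gcgb 4752 against 63527 CPM. By contrast, pltp was at 2689 against 2136 CPM (ratio 1.26) and arxa at 250 against 110 CPM (2.27), while pnoca was lower at 4525 against 9817 CPM (0.461). Of the 3 pan-endocrine genes considered 0 were called, with a median log2 ratio of -0.68. The transcription factor gene pax6b was at 978 against 737 CPM (1.33), and the granule genes scg3 and scg2b had ratios of 0.624 and 0.541. Of 776 genes considered, 47 were at least 4-fold higher in cluster 1 (6.06%) and 49 at least 4-fold lower (6.31%), and of the 3 α-cell markers other than glucagon that were considered, 0 were called. icn, a calcium-binding S100 protein, was 4.89-fold higher, at 1750 against 358 CPM, and ggh, which trims the tails of folates, was 19.7-fold higher. In 5 of the 17 cells the α-cell markers other than glucagon reached 1% of the counts on their own.

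**Figure D2:**
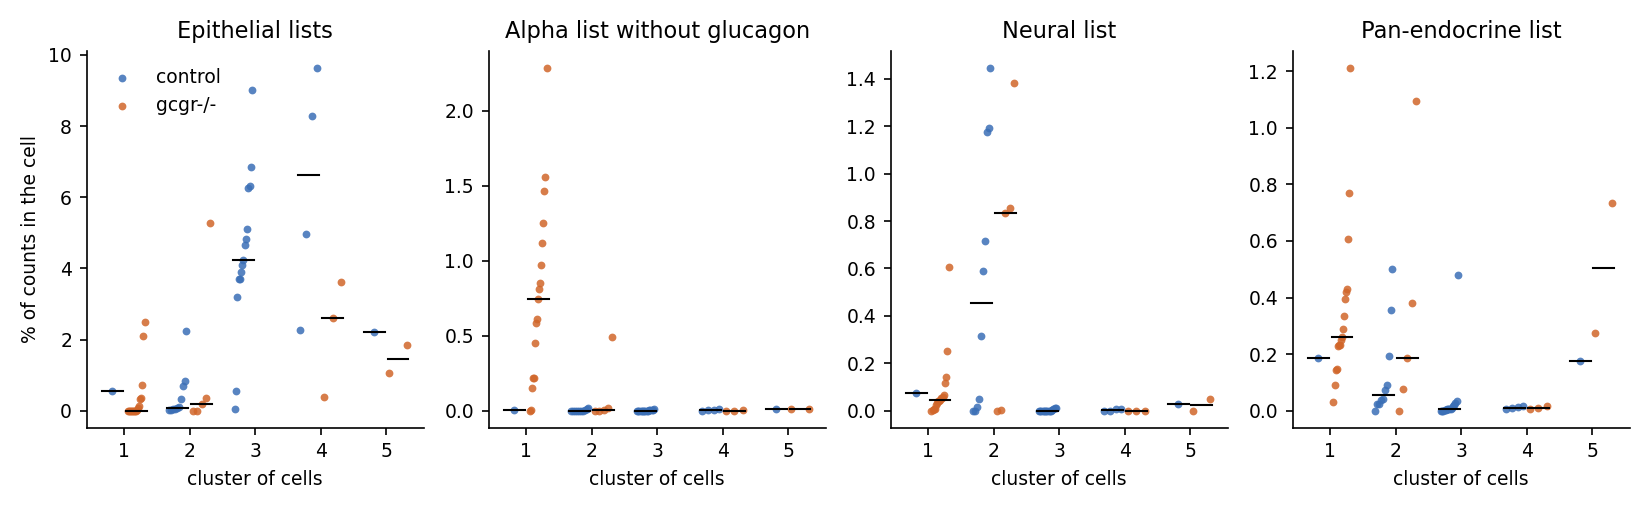
Percentage of each cell's counts (points, control blue, gcgr-/- orange, bars at medians) taken by 4 marker lists in each cluster. Epithelial markers are high in cluster 3 and, mostly through icn alone, in cluster 4. The α-cell markers without glucagon are high in the gcgr-/- cells of cluster 1 (median 0.745%). Neural markers are high in part of cluster 2 (median 0.591% over both genotypes) and pan-endocrine markers in parts of clusters 1, 2 and 5.

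Cluster 3 was epithelial-like and held control cells only. Most of its 15 cells carried the 4 marker genes that go with these cells. krt91 is a keratin, anxa2a and s100a10b encode a pair of proteins that join membrane to the actin cortex, and epcam encodes an epithelial adhesion molecule. krt91 was counted in 15 of 15 cells, between 351 and 20753 CPM with a median of 6094. s100a10b was counted in 14 cells (median 3600, highest 28760.5), epcam in 14 (median 8379, highest 19890.2) and anxa2a in 13 (median 2486, highest 22277). The markers of epithelium, basal epidermis and periderm together took between 0.0351% and 9.02% of the counts (median 4.22%), and at least 1% in 13 of the 15 cells. The cell at 0.0351% had 0 counts of the annexin and S100 genes and was the control cell nearest to the limit, with sst1.1 at 0.9996%. The cells were not all alike: krt97 had counts in 5 cells only, and the tight junction gene cldn1 in 10. Genes of the basal layer of the skin were present at a low level, tp63, its master regulator, in 7 cells and krt5 in 6. sparc and col1a1b, extracellular matrix genes of mesenchyme that larval skin also makes, were each counted in 13. pycard, an adaptor of the inflammasome, and rac2, a small GTPase of leukocytes, were among the leading genes, and were counted in 11 and 9 of the cells. Glucagon was near 0 in the control cells as a whole, as given above, and how cells without it came to pass the sort was not tested.

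Over all cells with no leading hormone, the 4 markers had higher summed levels in control than in gcgr-/-. These markers were chosen with earlier results of these data known, so their direction is no independent evidence. krt91 had counts in 18 of 31 control cells (58.1%) at 6304 CPM (6143 to 6468) and in 2 of 27 gcgr-/- cells (7.41%) at 92.8 CPM (71.2 to 119), of which 1 cell held 98.4% of the counts. anxa2a was counted in 16 control cells at 4295 CPM, with over 50% of the counts in 1 of them, and in 1 gcgr-/- cell. s100a10b was counted in 19 control cells at 6022 CPM and in 3 gcgr-/- cells at 172 CPM, and epcam in 23 at 5321 CPM and in 7 at 976 CPM. Among ins-led cells, which should not make krt91, 22.0% had a count of it in the control sample and 1.85% in gcgr-/-. After thinning to 5000 counts per cell, krt91 was found in 51.6% of the control and 3.70% of the gcgr-/- members, against 7.32% and 1.89% of ins-led cells. The median depth of all hormone-led cells was 20653 counts in control and 26091 in gcgr-/-. The control share therefore lay above this background and the gcgr-/- share close to it. For epcam, the gcgr-/- share of 25.9% did not exceed that in ins-led gcgr-/- cells, which was 33.3%.

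Cells whose epithelial markers together reached 1% of the counts numbered 19 of 31 in control (61.3%, 42.2 to 78.2) and 7 of 27 in gcgr-/- (25.9%, 11.1 to 46.3). Among hormone-led cells they were 4.80% of control and 3.07% of gcgr-/- cells. The gcgr-/- count rested on icn, which is in the periderm list. Without icn, an alternative chosen after seeing the data, 14 control cells (45.2%) and 1 gcgr-/- cell (3.70%) reached 1%. icn itself had counts in 23 control and 15 gcgr-/- cells, at 10775 and 4714 CPM, against 677 and 388 CPM in hormone-led cells. Cells past 1% are a range of a score, not a cell type, and belonged to all 5 clusters.

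Cluster 2 was neural-like in part. elavl3, which encodes an RNA-binding protein of neurons, was counted in 9 of its 15 cells, 6 control and 3 gcgr-/-, at 420 and 550 CPM summed over the cluster's cells of each genotype. Among hormone-led cells it was found in 5 of 125 control cells and 10 of 261 gcgr-/- cells. nrn1a, a gene of a neurite growth factor, led the cluster. Its level over the control cells was 3621 CPM and over the gcgr-/- cells 2178 CPM, a ratio of 0.602 (0.521 to 0.694) that rests on 5 and 2 cells. The neural list took between 0 and 1.45% of the counts, and at least 1% in 4 cells. Among the cells with elavl3, gng3, which encodes a G protein subunit of neurons, had counts in 3 of 6 (control) and 3 of 3 (gcgr-/-).

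The neural-like cells of the 2 genotypes were few, and the genes counted in them varied from cell to cell. In cluster 2 the median depth was 12479 counts in the control cells and 25493 in the gcgr-/- cells. The genes in this paragraph were picked after their values were seen. isl2a, a LIM-homeodomain factor of sensory and motor neurons, was counted in 5 of the 6 control cells with elavl3 and in 2 of the 3 gcgr-/- cells. phox2bb, a factor of autonomic neurons, and htr3a, a serotonin-gated channel, each had counts in 4 of the 6 control cells but in 0 of the 3 gcgr-/- ones. adcyap1b, the precursor of the neuropeptide PACAP, was counted in 3 and 1 of them. With 3 cells, a share of 0 says little, and no order of the genotypes can be drawn from it. The neural list took between 0.0166% and 1.45% of the counts in the 6 control cells with elavl3. In the 3 gcgr-/- cells with elavl3 it took between 0.835% and 1.38%. A count of elavl3 thus did not always go with a high neural score. The 6 cells of cluster 2 without elavl3 had at most 0.314% of their counts in the neural list. Among them 3 had counts of krt91 and 3 of pnoca, and 1 control cell of the cluster had 49.9% of its counts in a single unnamed gene, CABZ01080568.1.

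Cluster 4 was made of 7 cells that shared a distinct set of genes in both genotypes. The leading genes were slc22a7a, an organic anion transporter, and uraha, an enzyme of urate breakdown. slc22a7a stood at 7743, 8181, 19623 and 39509 CPM in the 4 control cells and at 10913, 16593 and 27355 CPM in the 3 gcgr-/- cells, so the genotypes overlapped. uraha stood at 3829, 8120, 9384 and 14724 CPM in control and at 3297, 6445 and 11181 CPM in gcgr-/-. In hormone-led cells neither gene exceeded 5.41 CPM summed over a genotype. aox5, an aldehyde oxidase chosen after its values were seen, stood at 342, 1104, 2399 and 6257 CPM in control and at 824, 3916 and 6445 CPM in gcgr-/-. gch2, which starts pteridine synthesis, and tfap2e, a transcription factor, were also among the leading genes. In zebrafish, aox5 and gch2 are used as markers of xanthophores, the yellow pigment cells. No list of pigment-cell markers was among those used, so the cluster stays unnamed. The melanin genes pmela, dct and tyrp1b had 0 counts in it.

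Within cluster 4, the values of some genes overlapped between the genotypes and those of others did not. gpr143, a pigment-cell receptor, was counted in all 4 control cells, at 143, 527, 1350 and 1389 CPM, and in 0 of the 3 gcgr-/- cells. prtfdc1, a relative of a purine salvage enzyme, stood at 123, 542, 932 and 1136 CPM in control and at 0, 0 and 54.9 CPM in gcgr-/-. gch2 went the other way, between 0 and 253 CPM in control against 476 to 738 CPM in gcgr-/-. The values of these genes did not overlap between the genotypes, but they were picked for that after their values were seen, and the cells of each genotype are 1 sample. The share of all genes with no overlap between 4 and 3 cells is not given, so no result about these genes is drawn. The summed ratio of gcgr-/- over control was 7.19 (3.52 to 16.1) for gch2, 4.48 (2.99 to 6.84) for tfap2e, 1.25 for slc22a7a and 0.848 for uraha. icn was high in all 7 cells and gave most of their epithelial score, with between 20999 and 92753 CPM in control and between 3901 and 35962 CPM in gcgr-/-.

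**Figure D3:**
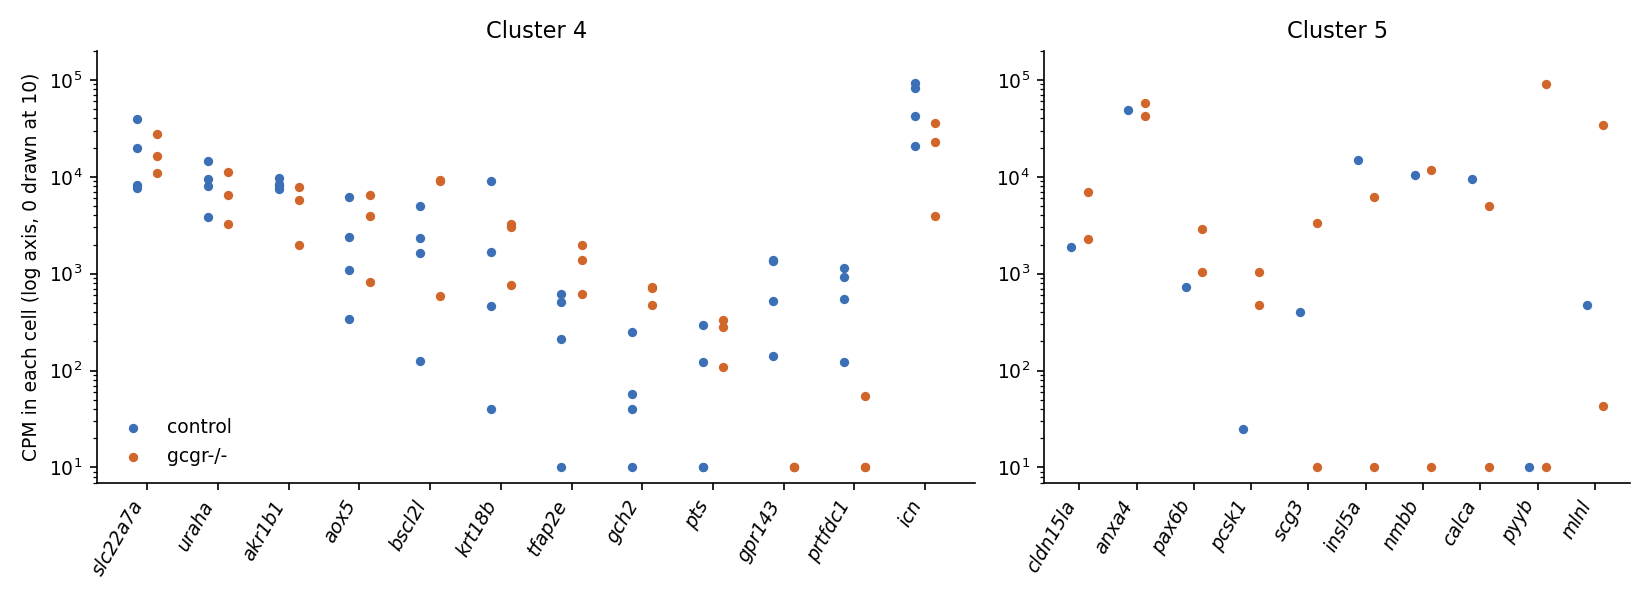
CPM of selected genes in each cell (points) of cluster 4 (left, 4 control in blue, 3 gcgr-/- in orange) and cluster 5 (right, 1 control, 2 gcgr-/-), on a log axis with 0 drawn at 10. In cluster 4, slc22a7a and uraha overlap between the genotypes. gpr143, at 0 in all 3 gcgr-/- cells, was picked after its values were seen, so no result is drawn from it. In cluster 5, 2 of the 3 cells have insl5a, nmbb and calca.

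Cluster 5 went against its selection, since its 3 cells carried endocrine genes and high levels of other peptide transcripts. All 3 had counts of pax6b, at 732 CPM in the control cell and at 1053 and 2879 CPM in the gcgr-/- cells, and of pcsk1, a protease that cuts prohormones, at 25.3, 480 and 1053 CPM. The peptide genes named here lay outside the 8 of the rule and were chosen after their values were seen. In the control cell, insl5a, an insulin-like peptide of the gut, took 1.48% of the counts, nmbb, a neuromedin B, took 1.05%, and calca, the calcitonin gene, took 0.957%. One gcgr-/- cell had 0.619%, 1.16% and 0.497% of its counts in the same genes. The other gcgr-/- cell had 0 counts of all 3 but 9.17% of its counts in pyyb, a peptide YY, and 3.42% in mlnl, a motilin-like peptide. These 3 cells therefore did have a leading peptide transcript, at or above the level that the rule set for the other hormones. They also shared cldn15la, a claudin of gut epithelium, at 1869, 2268 and 6948 CPM, and anxa4, an annexin of duct and gut epithelium, at 4.95%, 4.28% and 5.78% of their counts. The cluster stays unnamed, since it holds 3 cells and, among its leading genes, pcsk1 alone is on a marker list.

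Between the genotypes, the α-cell and pan-endocrine lists summed higher in the gcgr-/- cells with no leading hormone. The epithelial, actin and matrix lists summed higher in the control cells. Of 877 genes considered, 167 were at least 4-fold higher in gcgr-/- (19%) and 92 at least 4-fold lower (10.5%), and the median log2 ratio was 0.34. Clusters 1 and 3 were each almost wholly of 1 genotype, so these sums mix the kinds of cells with differences within a kind. All 5 α-cell genes considered were higher, pnoca at 3112 against 9.75 CPM (319-fold, 168 to 699), pltp at 1751 against 11.9 CPM (147-fold), arxa at 171 against 4.33 CPM, and gcga and gcgb, which the rule used. The α-cell list was made with these levels known, so its direction is no independent evidence. All 3 pan-endocrine genes considered were higher, among them the secretory granule gene chga at 744 against 2.17 CPM (343-fold, 94.6 to 2844) and pax6b 11.3-fold. These 3 passed the filters through gcgr-/-, where they were high, so their shared direction is no independent evidence. The whole pan-endocrine list of 20 genes summed to 376 CPM in control and 2958 CPM in gcgr-/-. chga was counted in 7 gcgr-/- cells, 1 of which held 45.9% of its counts, and in 1 control cell. Within cluster 2, the ratio of gcgr-/- over control was 41.5 (13.9 to 204) for pnoca and 101 (27.5 to 837) for chga, but 0.415 (0.132 to 1.13) for pax6b. There, pnoca was counted in 2 gcgr-/- cells, both without elavl3, and chga in 2 others, both with elavl3. In the pair with pnoca, the α-cell markers other than glucagon took 0.494% and 0.0023% of the counts. The pnoca ratio thus rested almost wholly on 1 cell, which had gcga at 0.486% and was closest to the gcga-led mean. ube2na, a ubiquitin-conjugating enzyme, was at 569 CPM in 10 gcgr-/- cells against 1 count in 1 control cell (525-fold, 93.7 to 20797).

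On the other side, 4 of the 6 epithelial genes considered were lower in gcgr-/-, with a median log2 ratio of -3.79 over the 6. anxa2a was not among the 6, since 1 control cell held over 50% of its counts. The paper lists krt91, s100a10b and anxa2a as top genes of a cluster of mostly control cells in these data. The direction of the epithelial list is therefore no independent evidence. krt91 was 67.9-fold lower (52.9 to 88.7) and s100a10b 35.0-fold lower, cyt1, a type I keratin, at least 97.0-fold lower with 0 counts in gcgr-/-, and epcam 5.45-fold lower. These differences were smaller or turned within cluster 2, which had cells of both genotypes. There krt91 had a ratio of gcgr-/- over control of 0.510 (0.369 to 0.699) and anxa2a of 0.790 (0.531 to 1.17), while s100a10b at 2.02 (1.36 to 3.06), epcam at 1.99 (1.71 to 2.32), cdh1 at 2.51 and krt18a.1 at 69.0 were higher in gcgr-/-. Of these, krt91, anxa2a, s100a10b and epcam each rested on 1 gcgr-/- cell. The epithelial list, which also holds krt18a.1, took 3.14% of the counts of 1 gcgr-/- cell of cluster 2 and at most 0.344% in the others. Most of the krt18a.1 counts therefore came from that cell. Over all members, the cadherin gene cdh1 and the keratin gene krt18a.1 were not called, at 269 against 234 CPM and 988 against 1522 CPM. bcam, a laminin receptor, was 415-fold lower (74.1 to 16404), at 1 count in 1 gcgr-/- cell against 621 CPM in 14 control cells. rbp4, a retinol carrier, had 608 CPM in 8 control cells and 0 counts in gcgr-/- (at least 135-fold lower), and cldn1 416 CPM in 11 cells and 0 counts (at least 92.6-fold lower). All 3 mesenchyme genes considered, both matrix genes (a list that shares members with the former) and 6 of the 10 actin cytoskeleton genes were lower, among them sparc at 67.4 against 828 CPM and tmsb1, which binds actin monomers, at 163 against 1515 CPM. Genes passed the filters through the genotype where they were higher, so the shared direction of these genes is no independent evidence. In control and gcgr-/-, the whole mesenchyme list summed to 1400 and 95.8 CPM. The matrix list summed to 1477 and 100 CPM, and the actin list to 17666 and 3672 CPM. Within cluster 2 the ratio of sparc was 0.955 (0.586 to 1.55) and that of tmsb1 7.95 (3.96 to 18.1). Without the cells of letter F, 105 genes were higher and 117 lower, so that the share called higher was 47.3% in place of 64.5%, and without letter B it was 76.9%. At a limit of 0.5% for a leading hormone the share called higher was 50%.

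**Figure D4:**
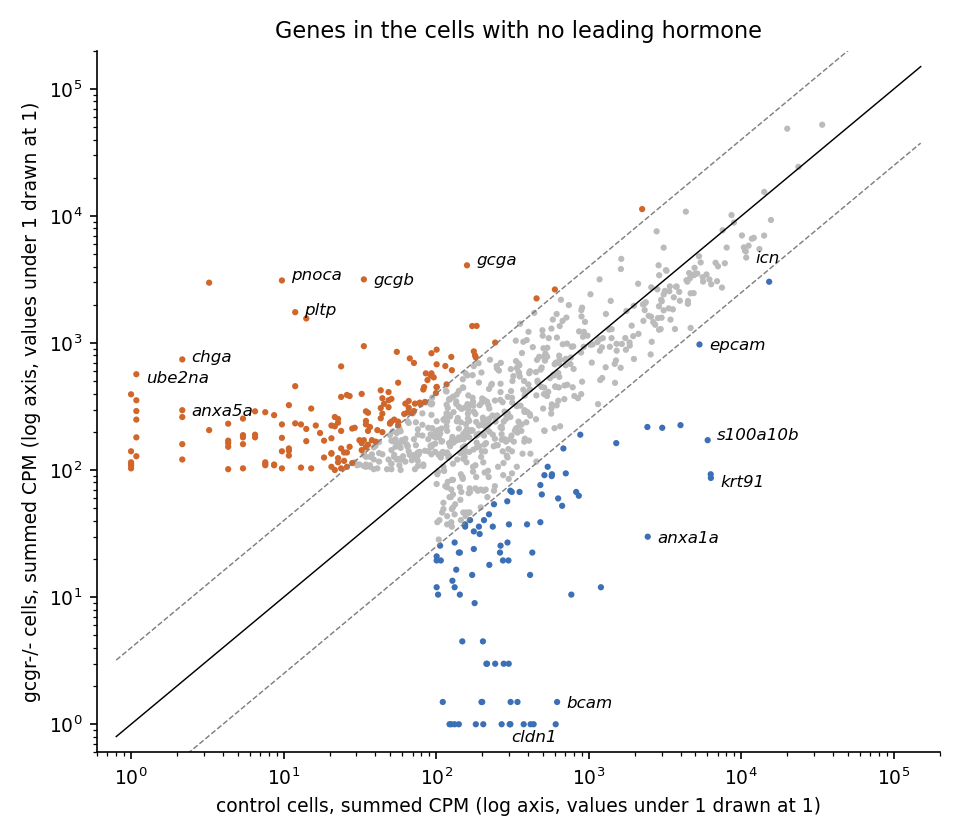
Summed CPM of the 877 genes considered in the cells with no leading hormone, control on the x axis and gcgr-/- on the y axis, both log axes with values under 1 drawn at 1. The solid line marks equal levels and the dashed lines 4-fold, with 167 genes at least 4-fold higher in gcgr-/- (orange), among them pnoca, pltp and chga, and 92 at least 4-fold lower (blue), among them krt91 and bcam.

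Other lists are to be read beside the shares over all genes considered, 19% called higher and 10.5% called lower. Of 3 neural genes considered 1 was higher in gcgr-/- (stmn1b, a tubulin-binding protein, 4.04-fold) and 0 were lower. Of 3 δ-cell genes 0 were called (median log2 ratio -0.93), although somatostatin was held under the limit by the rule. Of 78 cytosolic ribosomal protein genes 1 was called, but 73 had ratios under 1 and the list summed to 328864 CPM in control against 199502 CPM in gcgr-/-. This went with cluster 3, where the list had a median of 36.3% (19.8 to 54.0), against 18.1% in the gcgr-/- cells of cluster 1. Heat shock and chaperone genes summed to 110038 CPM in control and 170207 CPM in gcgr-/-, and 3 of 13 were called higher, close to the share over all genes. By cluster, their median was 20.5% in the gcgr-/- cells of cluster 1, 12.2% in cluster 3 and 0.634% in the gcgr-/- cells of cluster 4, and their part in the other differences was not tested. Of 4 ferritin and metallothionein genes considered 2 were called higher in gcgr-/-. The metal-binding metallothionein mt2 was 28.2-fold higher, at 946 against 33.6 CPM. The 1 β-cell gene considered was called higher, and the 1 ε-cell gene, gip, which the rule used, was called lower. Blood, endothelial and leukocyte markers were at or near 0, with no endothelial count in any of the 58 cells and at most 0.0810% of a cell's counts for leukocyte markers.

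Against the hormone-led cells of their own sample, the control cells with no leading hormone differed in more genes than the gcgr-/- cells at the limit of 1%. In control, 100 of 860 genes considered were higher (11.6%) and 103 lower (12%). Higher were rbp4 (777-fold, 265 to 3780.2), the annexin anxa1a (374-fold), cldn1 and rac2, and lower were the β-cell glucose sensor gck (88.4-fold, 30.2 to 429) and chga (75.9-fold, 20.9 to 628), each with at most 3 counts in the cells with no leading hormone. In gcgr-/-, 44 of 860 were higher (5.12%) and 43 lower (5%). Higher were icn (12.1-fold), cdh1 (8.87-fold), chga (8.86-fold) and snx2, a sorting nexin (14.8-fold), and lower were ptgdsb.1, a prostaglandin D synthase-like gene (226-fold, 62.7 to 1870.1), prkcsh and calr, the last pair acting in protein folding of the secretory pathway. chga thus lay on opposite sides in the 2 samples, a difference that was not tested. The hormone-led cells give a large part of their counts to the hormones. With the 8 hormones left out of the totals, the split of higher and lower genes became 87 and 142 in control (38.0% higher, in place of 49.3%) and 23 and 71 in gcgr-/- (24.5%, in place of 50.6%). With full totals, the shares of genes called either way were 23.6% in control and 10.1% in gcgr-/-. At a limit of 0.5% for a leading hormone they were 24.1% and 20.5%, and at 2% they were 19.8% and 5.93%. The size of the contrast therefore depended on the limit.

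By their whole profile without the hormones, 16 of the 27 gcgr-/- cells correlated best with the mean of the gcga-led cells of their sample. Of these 13 were in cluster 1 and 3 in cluster 2. The 4 other gcgr-/- cells of cluster 1 were closest to the sst1.1-led mean. The gap in Pearson's r to the next class was at most 0.0420, and genes are not independent replicates. Too few control cells were led by glucagon for such a class, and the control cells were closest to the sst1.1-led or ins-led mean, with gaps of at most 0.0111. These gaps are small beside the correlations themselves, so the closest class is an order and not an assignment of a type.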

How the data were processed

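Before deposit the authors had cut poly T tails and adapters (Trim Galore) from the reads, mapped them with STAR to the GRCz11 build, and counted those on coding sequence with featureCounts. Tool versions are not given in the sources used here. The deposited values are raw read counts per gene (24900 genes) and cell, in a table of all 576 sequenced cells split by sample and a table of the cells the authors kept. As the libraries hold 3′ ends and only coding sequence was counted, levels of different genes are not comparable. No step is stated that collapsed the molecular identifiers, so counts include PCR copies.

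Here, cells with at least 500 genes and at most 10% mitochondrial counts were used, 444 cells, 2 more than the study kept with that stated filter. The members, marker lists and gene lists were chosen with earlier results of these data known. Counts were summed per genotype and expressed as CPM, and 0 counts were set at 3 counts over the group for ratios. A gene was considered with at least 100 CPM in the higher group, a count in at least 20% of its cells and no cell with over 50% of its counts. Sums have exact Poisson, ratios exact conditional and shares Clopper-Pearson intervals at the 95% level. The calculation was tested on simulated data.

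Members were clustered by the Leiden method (1000 variable genes without the 8 hormones, 10 principal components, 10 neighbours, resolution 1) with scanpy 1.11.5. The plan was to name a cluster only where at least 3 listed markers were detected and led it. Of the 10 genes with the largest ratios in clusters 1, 2 and 3, only pltp, elavl3 and anxa1a were on a marker list. The names of these clusters rest on counts of listed markers and did not meet the plan by their leading genes. Thinning drew 5000 counts per cell with a fixed seed, and left out 1 control and 3 gcgr-/- hormone-led cells. Python 3.11.15, numpy 2.4.6, pandas 2.3.3, scipy 1.17.1 and matplotlib 3.10.9 were used.

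The text names the 4 given markers, the hormones and mlnl, the disrupted genes, genes of the lists that passed the filters, the genes with the largest ratios in each comparison (up to 10 in each direction, without clone names) and the 5 leading genes of each cluster. Genes named outside this rule, such as aox5, insl5a, nmbb and phox2bb, were chosen after their values were seen. Gene names are as the tables give them. Alternatives were other limits for the leading hormone, 750 genes per cell, the authors' kept cells, and at least 10 counts in place of the minimum CPM. Others were thinned counts, totals without hormones, each letter of the cell names left out, and other settings of the clustering. Libraries and letters were read from the cell names, whose meaning the sources do not state.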

Additional observations from a re-analysis of the deposited data

How the results depend on the processing

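Of 76 alternatives, 68 left the value within its counting interval, or a count of genes or clusters within 1.5 times. For genes, only the total called was judged, not its split into higher and lower. With the limit for a leading hormone at 0.5%, the gcgr-/- share was 4.86% and 157 genes differed from hormone-led cells in gcgr-/-, in place of 87. In control, 205 differed in place of 203. With the limit at 2%, the gcgr-/- values were 17.0% and 54. Between the genotypes, 98 genes were higher in gcgr-/- and 98 lower at the limit of 0.5%, in place of 167 and 92. The median log2 ratio there was -0.016, in place of 0.34. Epithelial markers then reached 1% in 6 of 14 gcgr-/- cells (42.9%, in place of 25.9%) and in 69.2% of control cells (in place of 61.3%). The excess of genes higher in gcgr-/- therefore depended on the limit. Among the cells the authors kept, the control share was 33.0%, since they had removed most cells led by insulin and many led by somatostatin. Without icn (chosen after seeing the data), 3.70% of the gcgr-/- cells passed the epithelial limit. At a resolution of 0.5 there were 3 clusters in place of 5, in which the 18 cells of cluster 1 lay with 14 of the 15 of cluster 2, and the 3 of cluster 5 with the 15 of cluster 3. With 20 principal components cluster 1 kept 10 of 18 cells together and cluster 2 kept 8 of 15, so the α-cell-like and neural-like groups were not stable. The 7 cells of cluster 4 stayed together without other cells in all 4 other clusterings. With class means of 5 cells each (chosen after seeing the data), 10 in place of 16 gcgr-/- cells were closest to gcga-led cells.

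With each letter of the cell names left out in turn, the control share ranged from 16.9% to 22.8% and the gcgr-/- share from 8.11% to 10.5%. The epithelial share ranged from 53.8% to 66.7% in control and from 22.2% to 30.4% in gcgr-/-. Genes called between the genotypes ranged from 222 to 268, those against hormone-led cells from 218 to 237 in control and from 99 to 110 in gcgr-/-. Without a minimum CPM but with at least 10 counts, and with the share of cells still required, the genes called were 357, 298 and 130. On thinned counts they were 183, 138 and 58. No paired analysis was possible because each genotype is 1 sample with no replicate number. With 31 and 27 cells, a gene counted in few cells gives no order of the genotypes.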
